A study of Mus musculus with 18 samples.

Results

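The heat shock chaperones described here are 8 mouse genes: the stress-inducible HSP70 genes Hspa1a and Hspa1b, the J protein gene Dnajb1, the HSP110 gene Hsph1, the constitutive HSP70 gene Hspa8, the cytosolic HSP90 gene Hsp90aa1, and the mitochondrial chaperonin genes Hspd1 and Hspe1. They were taken by name, as the genes of the count tables whose Ensembl identifier carries one of these symbols in the GENCODE M21 annotation of GRCm38, and they are 8 of 47729 genes. All 8 were found and all 8 passed the filter on low counts, which left 14675 genes for testing. The libraries came from epithelial cells of the ileum (the final stretch of the small intestine) that had been sorted by FACS from female mice. There were 6 libraries from pregnant mice, 6 from pseudopregnant mice and 6 from virgin mice, with poly(A) RNA measured by sequencing. Pseudopregnancy is a luteal state without embryos. All 3 groups were kept on the same standard diets, and the labels used here give no strain, age, day of pregnancy, way of inducing pseudopregnancy, hour of collection, sorting marker or batch. They do not say that replicates are separate animals either, so every p-value measures the spread between these samples only.

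HSP70 proteins bind short hydrophobic stretches of unfolded chains and release them on exchange of ATP and ADP. J proteins such as DNAJB1 deliver clients and speed ATP hydrolysis, and HSP110 proteins such as HSPH1 reopen the nucleotide pocket, so the set works as a cycle. HSP90 takes partly folded clients from HSP70, while HSPD1 (HSP60) and its lid HSPE1 (HSP10) form a folding chamber inside mitochondria. Heat shock factor 1 drives the inducible members from heat shock elements, which are inverted repeats of the unit GAA and its complement TTC; in intestinal epithelium these proteins are known for protection against heat, oxidants and microbial products.

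The upstream sequences are shown for their matches to heat shock element units and for the likeness of the Hspa1a and Hspa1b windows. Hspa1a (chromosome 17, 34969190 to 34972156, minus strand) and Hspa1b (chromosome 17, 34956436 to 34959238, minus strand) are neighbours with 9.95 kb between them. RefSeq start windows on GRCm38.p6 were matched for 6 of the 8 members by symbol, and Hspa8 and Hsp90aa1 are named only. Capitals mark matches to GAANNTTC or TTCNNGAA, searched on both strands (each motif is its own reverse complement, and matches may overlap). The first pair of windows covers the 250 bases before the start, chr17:34972157-34972406 for Hspa1a and chr17:34959239-34959488 for Hspa1b, both on the minus strand. The other pair are 30-base stretches around the match, chr1:55088053-55088082 on the plus strand for Hspe1 and chr5:149636351-149636380 on the minus strand for Hsph1.
Hspa1a: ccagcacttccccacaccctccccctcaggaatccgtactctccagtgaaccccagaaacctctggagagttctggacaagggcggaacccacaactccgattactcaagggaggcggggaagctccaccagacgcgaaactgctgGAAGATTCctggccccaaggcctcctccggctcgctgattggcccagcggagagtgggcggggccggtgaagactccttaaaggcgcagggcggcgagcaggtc
Hspa1b: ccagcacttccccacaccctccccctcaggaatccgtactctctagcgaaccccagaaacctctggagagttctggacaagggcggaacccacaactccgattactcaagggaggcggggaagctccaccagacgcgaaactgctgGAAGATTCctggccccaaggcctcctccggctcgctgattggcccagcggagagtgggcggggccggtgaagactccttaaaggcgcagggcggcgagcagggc
Hspe1: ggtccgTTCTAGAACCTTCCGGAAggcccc
Hsph1: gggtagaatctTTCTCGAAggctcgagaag

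The Hspa1a and Hspa1b windows were the same at 247 of 250 bases (98.8%), and both held GAAGATTC at bases -104 to -97 from the start. The Hspe1 stretch held 3 overlapping matches in a row at bases -89 to -72. That run also lies within the window of a listed Hspd1 start (55087932), inside the annotated Hspd1 gene. The window of the other listed Hspd1 start (55088243) held no match. Hspd1 and Hspe1 (chromosome 1) are transcribed away from each other and overlap by 112 bases (55088132 to 55088243), a stretch that does not hold the run. Hsph1 held a single match at bases -33 to -26 from one listed start, which is -54 to -47 from its other start. Both Hsph1 windows overlap an annotated exon of Hsph1. The match lies inside the annotated gene, which reaches 149636376. In all, 5 of the 6 matched members held GAANNTTC or TTCNNGAA in at least 1 listed window and Dnajb1 did not. Some members have more than 1 listed start, and per window 6 of 9 held a match. These are not separate sites, so the counts overstate them. The Hspa1a and Hspa1b windows are near copies, Hspd1 and Hspe1 hold the same run, and both Hsph1 windows hold the same match. Of all 32851 listed start windows (the 250 bases before a start), 12.8% held at least 1 of these motifs, and 0.466% held a run of 3 units (GAANNTTCNNGAA or TTCNNGAANNTTC), as Hspe1 did. A match describes letters and is not a measured binding site.

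Library totals ran from 24.9 to 37.3 M counts (M for mega; median 31.5). The epithelial marker Epcam ranged from 1639 to 3589 CPM (counts per M, TMM-scaled here and throughout) over the 18 libraries, and the leukocyte gene Ptprc from 0.198 to 0.638 CPM. Summed over all 11 leukocyte markers, libraries held 12.6 to 32.03 CPM in the pregnant, 15.1 to 31.1 CPM in the pseudopregnant and 11.2 to 36.2 CPM in the virgin group. The 10 stromal and endothelial markers together held at most 1.56 CPM, and none of these markers was at 0 in all libraries. Mitochondrially encoded transcripts took 4.02% to 9.22% of counts.

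All members were well measured, with 598 to 64770 counts per library. Levels between genes are compared as CPM per kb of exon (all annotated exons of a gene, merged), as mean ± SD over the 18 libraries. The longest transcript has 4764 of 7266 such bases for Hsph1, 964 of 1474 for Hspe1 and 2967 of 2967 for Hspa1a. The order may therefore depend on the length used. Counts on pseudogenes of Hspa8 and Hsp90aa1, given below, are not included. Hspa8, the housekeeping HSP70, was the most abundant at 316 ± 66.0 CPM per kb, above the next gene in 18 of 18 libraries. Then came Hspa1b at 128 ± 50.4, Hsp90aa1 at 117 ± 29.9, Hspd1 at 106 ± 27.2, Hspa1a at 103 ± 43.5 and Hspe1 at 77.3 ± 31.8 CPM per kb. Neighbours in this order did not separate: Hspa1b lay above Hsp90aa1 in 12 libraries, Hsp90aa1 above Hspd1 in 10, Hspd1 above Hspa1a in 9 and Hspa1a above Hspe1 in 14. Among pairs farther apart in the order, Hspa1b lay above Hspa1a and Hsp90aa1 above Hspe1 in 18 of 18 libraries. Hspa1a and Hspa1b share much of their sequence, as given below, and the part of this in their order was not tested. Dnajb1 at 31.7 ± 7.17 CPM per kb lay below Hspe1 in 18 of 18 libraries, and Hsph1 at 6.29 ± 2.80 CPM per kb lay below Dnajb1 in 18 of 18. The spread between libraries differed by gene, from 1.97-fold between the lowest and the highest library for Hspa8 to 4.55-fold for Hspa1b and 5.05-fold for Hspa1a.

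**Figure D1:**
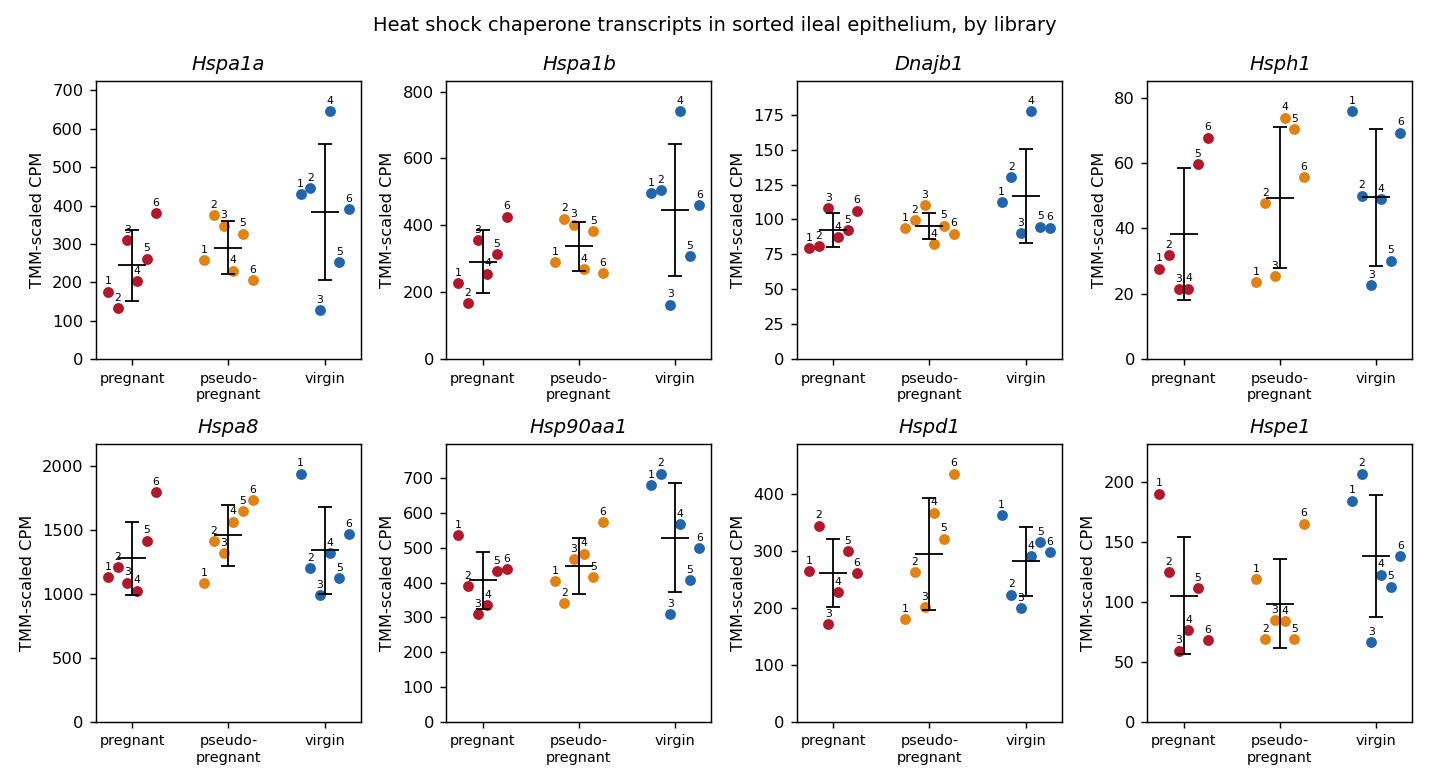
TMM-scaled CPM of the 8 chaperone genes on linear axes that start at 0, by group (pregnant, pseudopregnant, virgin; n = 6 each). Each point is a library labelled with its replicate number, and the bars give mean ± SD. For every gene the groups overlap, and virgin replicate 3 is the lowest virgin library in all 8 panels, with Hspa1a at 128 CPM there and 647 CPM in virgin replicate 4.

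The stress-inducible HSP70 genes had the largest differences among the members in the first comparison, pregnant against virgin, and none passed adjustment. Hspa1a, whose protein is made at high rates after heat, stood at 132, 233 and 381 CPM (lowest, median and highest of 6 libraries) in pregnant, at 206, 292 and 374 CPM in pseudopregnant and at 128, 410.3 and 647 CPM in virgin libraries. All 6 pregnant and all 6 pseudopregnant libraries lay under the virgin median, yet the ranges overlapped. Virgin replicate 3 held the least Hspa1a of all 18, and virgin replicate 5 (254 CPM) also lay within the ranges of both other groups. Against virgin, the log2 fold change of Hspa1a was -0.65 in pregnancy (SE 0.30, 95% interval -1.28 to -0.015, unadjusted p = 0.045, edgeR's quasi-likelihood test with Benjamini-Hochberg adjusted p = 0.89). In pseudopregnancy it was -0.40 (SE 0.30, -1.03 to 0.23, edgeR adjusted p = 0.54). Both comparisons share the 6 virgin libraries, so these values are not independent of each other.

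Hspa1b, which encodes a protein almost identical to that of Hspa1a, stood at 167, 285 and 426 CPM in pregnant, at 258, 336 and 419.8 CPM in pseudopregnant and at 163, 477 and 742 CPM in virgin libraries. Its libraries fell in the same places as those of Hspa1a, with all pregnant and pseudopregnant ones under the virgin median. The log2 fold change was -0.61 for pregnant against virgin (SE 0.28, unadjusted p = 0.039, edgeR adjusted p = 0.89) and -0.40 for pseudopregnant against virgin (SE 0.28, edgeR adjusted p = 0.53). The genes cannot be told apart fully: 47.1% of 100-base windows of the longest Hspa1a transcript occur in Hspa1b, and 49.9% of those of Hspa1b occur in Hspa1a. With any other annotated gene counted, the share for Hspa1a was 56.5%. With their counts summed as 1 gene, no comparison gained an adjusted call.

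Dnajb1, the J protein partner of inducible HSP70 (chromosome 8, 83608193 to 83612653, plus strand), varied less between libraries than Hspa1a and Hspa1b. It stood at 79.6, 89.8 and 108 CPM in pregnant, at 82.1, 94.5 and 110.2 CPM in pseudopregnant and at 90.2, 104 and 178 CPM in virgin libraries. The groups overlapped, and virgin replicate 4 alone, also the highest for Hspa1a and Hspa1b, reached 178 CPM. The log2 fold change was -0.34 for pregnant against virgin (SE 0.15, unadjusted p = 0.036, edgeR adjusted p = 0.89) and -0.30 for pseudopregnant against virgin (SE 0.15, unadjusted p = 0.062, edgeR adjusted p = 0.52). Without virgin replicate 4, the pregnant against virgin values were -0.43 for Hspa1a, -0.41 for Hspa1b and -0.18 for Dnajb1. Without virgin replicate 3, they were -0.83, -0.79 and -0.40 in the same gene order. In these bulk libraries fewer cells of a type and less RNA per cell cannot be told apart.

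The nucleotide exchange factor Hsph1 (chromosome 5, 149614287 to 149636376, minus strand) stood at 21.3, 29.7 and 67.7 CPM in pregnant, at 23.6, 51.7 and 73.9 CPM in pseudopregnant and at 22.6, 49.5 and 75.9 CPM in virgin libraries. In every group its libraries ran from about the same low to about the same high value. The log2 fold change was -0.37 for pregnant against virgin (SE 0.36) and -0.00 for pseudopregnant against virgin (SE 0.36), with edgeR adjusted p of 0.89 and 0.999. Hspa8, the constitutive HSP70 (chromosome 9, 40800984 to 40810087, plus strand), stood at 1026, 1171 and 1798 CPM in pregnant, at 1083, 1490.2 and 1733 CPM in pseudopregnant and at 989, 1260.4 and 1943 CPM in virgin libraries. Its fold changes were near 0, at -0.07 (SE 0.18) and 0.12 (SE 0.18) on the log2 scale against virgin. The 95% interval for pregnant against virgin, -0.45 to 0.32, leaves room for a difference in either direction.

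Hsp90aa1, the stress-responsive cytosolic HSP90 (chromosome 12, 110690605 to 110702728, minus strand), stood at 310.0, 412 and 537 CPM in pregnant, at 342, 442 and 575 CPM in pseudopregnant and at 309, 534 and 714 CPM in virgin libraries. Of the pregnant libraries 5 of 6 lay below the virgin median, and of the pseudopregnant ones 5 of 6. The log2 fold change was -0.38 for pregnant against virgin (SE 0.19, unadjusted p = 0.061, edgeR adjusted p = 0.89) and -0.24 for pseudopregnant against virgin (SE 0.19, edgeR adjusted p = 0.55). Other annotated genes, mostly processed pseudogenes, share sequence with both: 7 genes that share 100-base stretches with Hspa8 held counts equal to 48.0% to 59.7% of those of Hspa8, and 3 that share them with Hsp90aa1 held 29.0% to 40.5%. With those counts added to the parent gene, the pregnant against virgin values were -0.08 for Hspa8 and -0.36 for Hsp90aa1.

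Of the mitochondrial pair, Hspd1 (chromosome 1, 55077835 to 55088243, minus strand) stood at 171, 263 and 344 CPM in pregnant, at 180.2, 292 and 436 CPM in pseudopregnant and at 199, 295 and 363 CPM in virgin libraries. Its log2 fold change against virgin was -0.11 in pregnancy (SE 0.21) and 0.07 in pseudopregnancy (SE 0.21), with overlapping groups in each. Hspe1 (chromosome 1, 55088132 to 55091307, plus strand) stood at 59.2, 94.1 and 190.0 CPM in pregnant, at 68.9, 84.4 and 165 CPM in pseudopregnant and at 66.1, 130.3 and 207 CPM in virgin libraries. Of the 6 libraries in each group, 5 pregnant and 5 pseudopregnant ones lay below the virgin median of Hspe1. The log2 fold changes were -0.40 (SE 0.30, edgeR adjusted p = 0.89) and -0.49 (SE 0.30, edgeR adjusted p = 0.52). The difference between the fold changes of the chaperonin and its lid is given below as a ratio within each library.

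Counted together, 0 of 8 members passed an adjusted p of 0.05 for pregnant against virgin, where 0.0% of all genes did. At an unadjusted p under 0.05, 3 members were lower in pregnant libraries (Hspa1a, Hspa1b and Dnajb1) and 0 higher, beside 3.68% of all genes in either direction, 1.66% lower and 2.02% higher. DESeq2 and limma-voom also passed 0 members after adjustment, with 3 and 0 members at an unadjusted p under 0.05. Hspa1a and Hspa1b share sequence, so the 3 members are not separate observations. The fold change was below 0 for 8 of 8 members and for 51.5% of all genes, and the median was -0.37 for the members and -0.01 for all genes. All 6 pregnant libraries lay below the virgin median for 2 of 8 members (4.76% of all genes), and at least 5 of 6 did for 4 of 8 (21.7% of all genes). The count of 3 rested on single libraries: it was 0 without virgin replicate 2, virgin replicate 4, pregnant replicate 2 or pregnant replicate 4, 1 without virgin replicate 1, virgin replicate 6 or pregnant replicate 5, and 4 without virgin replicate 3 or virgin replicate 5.

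For pseudopregnant against virgin, 0 of 8 members passed either threshold in edgeR, DESeq2 or limma-voom, where 0.0% of genes in edgeR passed the adjusted and 9.37% the unadjusted one (2.01% lower and 7.36% higher). The fold change was below 0 for 6 of 8 members (49.4% of all genes), with a median of -0.27 for the members and 0.0045 for all genes. All 6 pseudopregnant libraries lay below the virgin median for 2 of 8 members (4.07% of all genes), and at least 5 of 6 did for 5 of 8 (19.9%). Without virgin replicate 3, 4 members reached an unadjusted p under 0.05, and without virgin replicate 5, virgin replicate 6, pseudopregnant replicate 3 or pseudopregnant replicate 6 it was 1. For pregnant against pseudopregnant libraries, the comparison of a state with embryos and a state without, 0 of 8 members passed either threshold by any of these tools (edgeR, 0.0% and 2.35% of all genes, the second being 1.59% lower and 0.763% higher). Fold changes ran from -0.37 (Hsph1, SE 0.36) to 0.09 (Hspe1, SE 0.30), and 7 of 8 were below 0 (51.6% of all genes). All 6 pregnant libraries lay below the pseudopregnant median for 0 of 8 members (5.85% of all genes), and at least 5 of 6 did for 2 of 8 (23.6%). For no member did groups fail to overlap, which happened for 0.0681% of all genes in each comparison with virgin and for 0.0273% between pregnant and pseudopregnant.

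**Figure D2:**
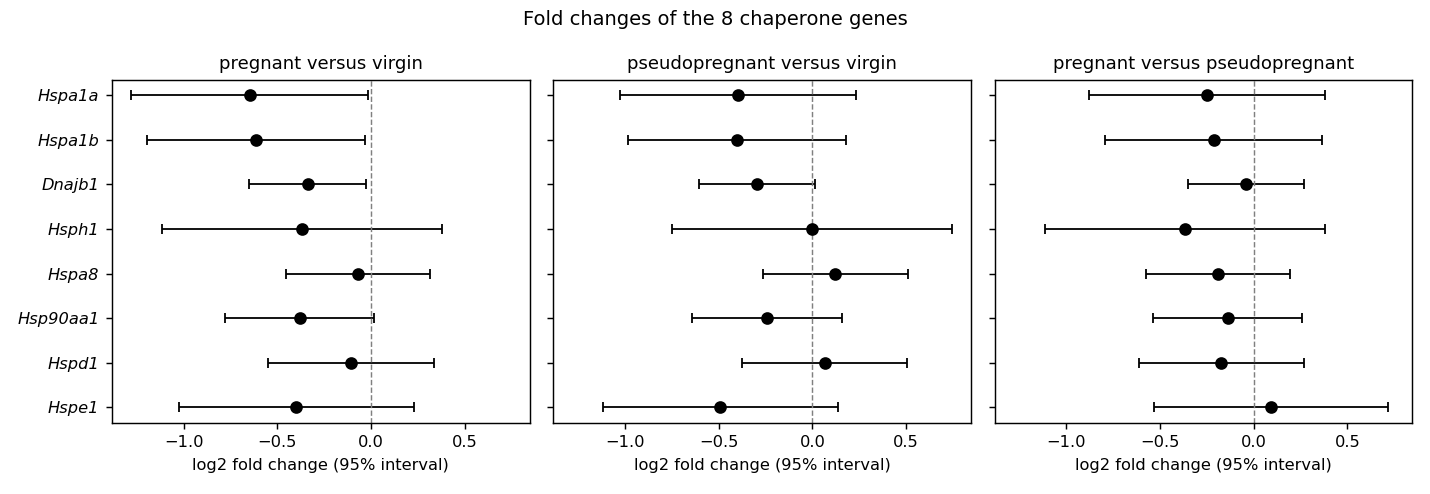
Log2 fold changes of the 8 genes with 95% intervals in the 3 pairwise comparisons (edgeR, 18 libraries). In pregnant against virgin all 8 points lie below 0 and the intervals of Hspa1a, Hspa1b and Dnajb1 end just short of 0, while every interval of the other comparisons spans 0.

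With pregnant and pseudopregnant libraries averaged and set against virgin, 0 of 8 members passed adjustment (0.0% of all genes in edgeR), as with DESeq2 and limma-voom. Dnajb1 had a log2 fold change of -0.32 (SE 0.13, unadjusted p = 0.023), Hspa1b of -0.51 (SE 0.24, unadjusted p = 0.044) and Hspa1a of -0.52 (SE 0.26, unadjusted p = 0.055). The edgeR adjusted p was 0.58 for each of them. Thus 2 members lay under an unadjusted 0.05, both lower, beside 7.6% of all genes (2.81% lower and 4.8% higher). The fold change was below 0 for 7 of 8 members and for 50.1% of all genes, and this contrast uses the same libraries as the pairwise ones. That count ran from 0 without virgin replicate 4 to 5 without virgin replicate 3.

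Ratios of a member to its partner within a library cancel the scaling of that library. Counts on the genes that share sequence with Hspa8 and Hsp90aa1, given above, are not included, so the ratio levels may depend on how such reads were treated. Inducible to constitutive HSP70, as the sum of Hspa1a and Hspa1b over Hspa8 per kb of exon, was 0.370, 0.639 and 0.915 (lowest, median and highest) in pregnant, 0.401, 0.700 and 0.850 in pseudopregnant and 0.441, 0.805 and 1.57 in virgin libraries. Of the pregnant libraries 5 of 6 lay below the virgin median, and the groups overlapped. The mean log2 difference was -0.49 for pregnant against virgin (SE 0.31, exact two-sided permutation p = 0.15) and -0.42 for pseudopregnant against virgin (SE 0.32, exact permutation p = 0.23). Hsp90aa1 over its paralog Hsp90ab1, the constitutive cytosolic HSP90, was 0.243, 0.306 and 0.327 in pregnant, 0.254, 0.313 and 0.401 in pseudopregnant and 0.272, 0.336 and 0.406 in virgin libraries. All 6 pregnant libraries lay below the virgin median of this ratio, with a log2 difference of -0.17 (SE 0.11, exact permutation p = 0.15). Dnajb1 over the constitutive J protein gene Dnaja1, Hsph1 over the HSP110 relative Hspa4, and Hspd1 over the mitochondrial HSP70 gene Hspa9 had exact permutation p-values of 0.38 or more in all 3 comparisons. None of the 18 tests passed, with Benjamini-Hochberg adjusted p of 0.81 or more.

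Hspd1 over Hspe1 was 0.778, 1.58 and 2.14 in pregnant, 0.846, 1.80 and 2.59 in pseudopregnant and 0.602, 1.26 and 1.68 in virgin libraries. The ratio thus varied more within each group than its medians differed between groups. The log2 difference was 0.31 for pregnant against virgin (SE 0.29, exact permutation p = 0.32) and 0.50 for pseudopregnant against virgin (SE 0.33, exact permutation p = 0.16). Its position followed the length slope of the library, which is the change in a library's log2 CPM per doubling of exon length over 6364 expressed genes. Hspe1 has the shortest exons of the members (1474 bases), Hspd1 has 2642 and Hsph1 has the longest (7266).

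With group means removed, the members fell into sets by how they varied over the 18 libraries. Of 28 pairs, 7 had a Benjamini-Hochberg adjusted permutation p under 0.05. Hspa1a and Hspa1b moved nearly as one (Pearson's r 0.998, Spearman's rho 0.996, adjusted permutation p = 0.00014, r 0.995 without the 2 libraries farthest from the median). Dnajb1 went with them: with Hspa1a, r was 0.81 and rho 0.85 (adjusted permutation p = 0.0094, r 0.83 without 2 libraries), and with Hspa1b r was 0.81 and rho 0.86 (adjusted permutation p = 0.0094, r 0.83 without 2 libraries). Hsph1 went with Hspa8 (r 0.90, rho 0.92, adjusted permutation p = 0.00014, r 0.86 without 2 libraries), and each of these went with Hspd1. For Hsph1 and Hspd1, r was 0.69 and rho 0.66 (adjusted permutation p = 0.016, r 0.57 without 2 libraries). For Hspa8 and Hspd1, r was 0.67 and rho 0.69 (adjusted permutation p = 0.012, r 0.77 without 2 libraries).

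Hsp90aa1 went with Hspe1 (r 0.82, rho 0.74, adjusted permutation p = 0.0011, r 0.73 without 2 libraries). The chaperonin subunits Hspd1 and Hspe1, which sit head to head, had an r of 0.41 and a rho of 0.40 (adjusted permutation p = 0.20, r 0.46 without 2 libraries). Between the set of Hspa1a, Hspa1b and Dnajb1 and either Hspd1 or Hspe1, r ran from -0.24 to 0.00. Without the 2 farthest libraries these 6 values ran from -0.58 (Dnajb1 and Hspd1) to -0.23 (Hspa1b and Hspd1), with -0.40 for Hspa1a and -0.38 for Hspa1b with Hspe1. Libraries share depth, sorting and cell makeup, and the part of these in the correlations was not tested beyond the measures given next.

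**Figure D3:**
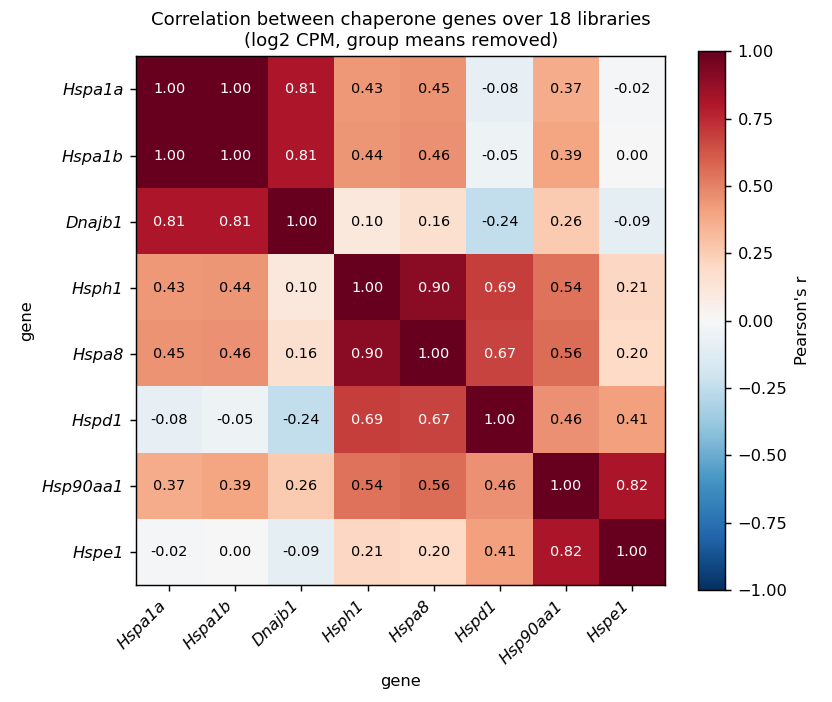
Pearson's r between the 8 chaperone genes over 18 libraries, from log2 CPM with group means removed; colour runs from -1 to 1. Hspa1a, Hspa1b and Dnajb1 form a block with r of 0.81 or more, Hsph1, Hspa8 and Hspd1 form a second with r of 0.67 to 0.90, and Hsp90aa1 and Hspe1 pair at 0.82.

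Each member was set against 4 measures of a library, 32 relations in all, again with group means removed. Hspd1 was high where proliferation markers were high relative to enterocyte markers: its r with the villus-minus-crypt score, the mean log2 level of 21 absorptive enterocyte markers minus that of 20 proliferation markers, was -0.84 (rho -0.83, adjusted permutation p = 0.0008, r -0.80 without the 2 farthest libraries). For Hsph1, r with that score was -0.69 (rho -0.55, adjusted permutation p = 0.024 for r and 0.12 for rho, r -0.57 without 2 libraries). The score averaged 0.30 ± 0.76 in pregnant, -0.05 ± 0.72 in pseudopregnant and -0.25 ± 0.74 in virgin libraries (SD, n = 6). With the score as a covariate, the pregnant against virgin log2 fold changes of Hsph1, Hspa8 and Hspd1 were 0.02, 0.05 and 0.12. Those of Hsp90aa1 and Hspe1 were then -0.23 in place of -0.38 and -0.16 in place of -0.40, and those of Hspa1a, Hspa1b and Dnajb1 were -0.67, -0.61 and -0.38.

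Hspe1 was high where short transcripts were high, with an r of -0.87 with the length slope (rho -0.89, adjusted permutation p = 0.00032, r -0.82 without 2 libraries). Hsp90aa1 had an r of -0.59 with the slope (rho -0.54, adjusted permutation p = 0.041 for r and 0.12 for rho, r -0.47 without 2 libraries). The exons of Hsp90aa1 have 3931 bases, more than those of Hspd1. For Hspd1 and Hsph1, r with the slope was 0.07 and 0.22 (adjusted permutation p = 0.90 and 0.67). The ratio of Hspd1 to Hspe1 had an r of 0.96 with the slope (rho 0.96, adjusted permutation p = 0.00024 over 24 ratio relations, r 0.95 without 2 libraries). The length slope averaged 0.00 ± 0.13 in pregnant, 0.07 ± 0.17 in pseudopregnant and -0.07 ± 0.11 in virgin libraries. With it as a covariate, the pseudopregnant against virgin fold change of Hspe1 was 0.06 in place of -0.49, and that of Hsp90aa1 was -0.00 in place of -0.24. For pregnant against virgin, Hspe1 was then at -0.16 in place of -0.40 and Hsp90aa1 at -0.25 in place of -0.38. Hspa1a, Hspa1b and Hsph1 lay farther from 0, at -0.73, -0.68 and -0.53 in place of -0.65, -0.61 and -0.37. Dnajb1, Hspa8 and Hspd1 were then at -0.34, -0.10 and -0.11.

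**Figure D4:**
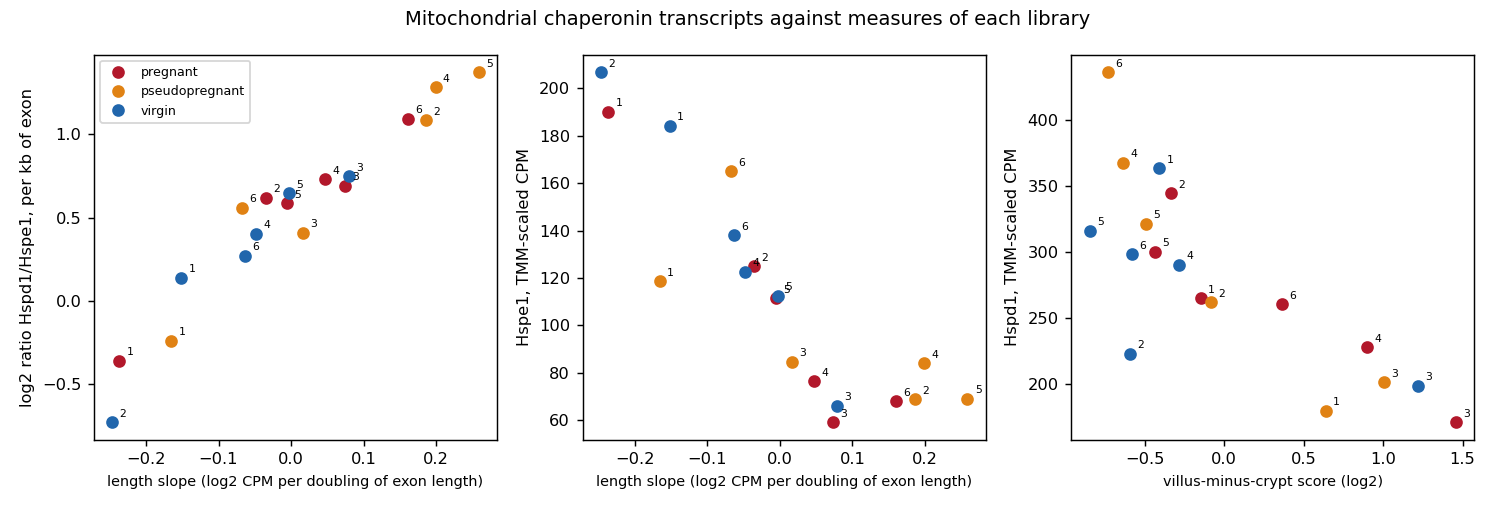
Left, log2 ratio of Hspd1 to Hspe1 (per kb of exon) against the length slope of each library (log2 CPM per doubling of exon length); middle, Hspe1 (TMM-scaled CPM) against the same slope; right, Hspd1 (TMM-scaled CPM) against the villus-minus-crypt score (log2). Points are 18 libraries coloured by group and labelled with replicate number. With group means removed r was 0.96, -0.87 and -0.84, and libraries of all 3 groups lie along each trend.

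For Hspa1a, Hspa1b and Dnajb1, the largest r was with the mitochondrial share of counts. Dnajb1 had an r of 0.64 with the immediate early score (rho 0.54, adjusted permutation p = 0.041 for r and 0.12 for rho, r 0.68 without 2 libraries) and of 0.67 with the mitochondrial share of counts (rho 0.47, adjusted permutation p = 0.022 for r and 0.15 for rho, r 0.57 without 2 libraries). For Hspa1a and Hspa1b, r with the mitochondrial share was 0.61 for each (rho 0.53, adjusted permutation p = 0.041 for r and 0.12 for rho, r 0.63 and 0.64 without 2 libraries). Their r with the immediate early score was 0.39 and 0.36 (adjusted permutation p = 0.32 and 0.35, r 0.45 and 0.42 without 2 libraries). Hspd1 went the other way with the immediate early score (r -0.68, rho -0.64, adjusted permutation p = 0.022 for r and 0.078 for rho, r -0.59 without 2 libraries). Hsp90aa1, also stress-responsive, had an r of -0.20 with that score and of -0.09 with the mitochondrial share (adjusted permutation p = 0.73 and 0.88). The immediate early score, over 20 genes that cells switch on within minutes of a stimulus, averaged -0.09 ± 0.19 in pregnant, -0.07 ± 0.16 in pseudopregnant and 0.16 ± 0.21 in virgin libraries. Its part in the lower Hspa1a, Hspa1b and Dnajb1 values of the pregnant and pseudopregnant groups was not tested.

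The rest of the chaperone network was read from lists that hold no member. The heat shock factor Hsf1, which binds heat shock elements, stood at 11.9 ± 2.56 CPM in pregnant, 13.0 ± 2.86 CPM in pseudopregnant and 12.9 ± 2.49 CPM in virgin libraries (SD, n = 6). For pregnant against virgin, 0 genes of any list passed adjustment (edgeR adjusted p of 0.89 or more for those named next). Of 13 HSP90 paralog and co-chaperone genes, 12 had a fold change below 0 in each comparison with virgin (median -0.17 in pregnancy and -0.18 in pseudopregnancy). Among them, Fkbp5, an immunophilin that binds HSP90, stood at 14.6 ± 5.08 CPM in pregnant, 14.5 ± 3.27 CPM in pseudopregnant and 22.9 ± 15.8 CPM in virgin libraries. Of 7 HSP70 nucleotide exchange factors, 6 were below 0 in pregnancy (median -0.20). Bag5 had a log2 fold change of -0.31 (SE 0.12, unadjusted p = 0.021) and Bag3, itself induced by heat shock factor 1, of -0.20 (SE 0.09, unadjusted p = 0.045).

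Of 14 tested other targets of heat shock factor 1, a list that shares genes with the co-chaperone lists, 12 were below 0 in pregnancy and 11 in pseudopregnancy (median -0.16 and -0.11). Dnaja1 stood at 248 ± 30.5 CPM in pregnant, 241 ± 22.2 CPM in pseudopregnant and 296 ± 60.4 CPM in virgin libraries. Of the 14 genes of CCT and prefoldin, the cytosolic chaperonin and its delivery complex, all 14 were below 0 in each comparison with virgin (median -0.15 in pregnancy and -0.17 in pseudopregnancy), against 51.5% and 49.4% of all genes. These shares apply to every list here. At an edgeR unadjusted p under 0.05, 1 of the 14 was lower in pregnancy and 3 in pseudopregnancy, beside 1.66% and 2.01% of all genes. Genes of a list may vary together, so such counts are not separate observations. Of 12 mitochondrial chaperones and proteases 8 were below 0 in pregnancy (median -0.11), and of 18 ER chaperone and unfolded protein response genes 11 (median -0.09). The other HSP70 and HSP110 genes were split 3 and 3 (median -0.01), with Hspa4l at 23.8 ± 4.90 CPM in pregnant, 28.4 ± 7.76 CPM in pseudopregnant and 21.3 ± 3.39 CPM in virgin libraries. Of 11 other cytosolic J protein genes 8 were below 0 in pregnancy (median -0.05). Of 4 heat shock factor genes 3 passed the filter on low counts, and all 3 were below 0 (median -0.12). Of 7 small heat shock protein genes 2 passed it, 1 above and 1 below 0.

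Immediate early genes had a fold change below 0 for 18 of 20 in each comparison with virgin (median -0.19 in each). Klf2, a zinc finger factor of that list, stood at 12.9 ± 2.24 CPM in pregnant, 13.5 ± 2.18 CPM in pseudopregnant and 22.3 ± 9.60 CPM in virgin libraries. Its log2 fold change was -0.79 in pregnancy (SE 0.21, unadjusted p = 0.0013, edgeR adjusted p = 0.89). Of the 9 goblet cell markers, 9 were below 0 for pregnant against virgin (median -0.29), and for the 20 proliferation markers, 20 were (median -0.19), while 19 of 21 absorptive enterocyte markers were above 0 (median 0.44). All 11 enteroendocrine markers (median -0.33) and 8 of 9 Paneth cell markers (median -0.11) were below 0 too. For pseudopregnant against virgin, 6 of 9 goblet (median -0.24), 9 of 11 enteroendocrine (median -0.21), 9 of 9 Paneth (median -0.43) and 9 of 20 proliferation markers (median 0.02) were below 0, and 15 of 21 enterocyte markers were above 0 (median 0.19). The part of these cell type markers in the member values was not tested, apart from the covariate above.

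The genes most like each member, the other members left out, were sought among 9289 tested genes with a mean of at least 5 CPM, by Pearson's r over the 18 libraries with group means removed. Outside the members, Hspa1a was closest to Hspa1l (r 0.84), a neighbouring HSP70 gene that shares stretches of sequence with it, and then to Hepacam2 (0.81), Ddit4 (0.80), Ccn1 (0.78) and Atoh1 (0.78). The same 5 genes led for Hspa1b. Dnajb1 was closest to Serpina1b (0.83), Bcas1 (0.82), Capn9 (0.79), Plk2 (0.77) and Muc2 (0.76). Hsph1 and Hspa8 shared Stip1, which encodes the adaptor between HSP70 and HSP90 (0.92 and 0.85). The others for Hsph1 were Nol8, Kat2a, Nolc1 and Pwp2 (0.88 to 0.90), and for Hspa8 Uspl1, Luc7l, Usp39 and Rars2 (0.79 to 0.86).

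Hsp90aa1 was closest to Agr2 (0.89), Alkbh1, Cpsf4, Mrpl42 and Uchl3 (0.85 to 0.87). Hspd1 was closest to Mgme1 (0.96), Mcm3, Nsun2, Usp14 and Rrm1 (0.95 each), of which Mcm3 belongs to the proliferation list. Hspe1 was closest to Tomm5, Lsm6, Emg1, Erh and Bccip (0.99 each). The number of genes outside the members with an r of at least 0.8 differed widely: 2 for Hspa1a, 3 for Hspa1b, 2 for Dnajb1, 4 for Hspa8, 66 for Hsp90aa1, 85 for Hsph1, 322 for Hspd1 and 1046 for Hspe1. Correlations between the members are not in these counts.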

How the data were processed

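RNA of sorted ileal epithelium was sequenced in 18 libraries, 6 per group, grouped by their titles. The authors deposited raw read counts per Ensembl gene, with 1 table per library and no normalization. The submitters' processing notes name the build GRCm38 and, in no stated role, HISAT2 2.0.4, Subread 2.0.0 with featureCounts, FastQC 0.11.5 and DESeq2 1.24.0. Libraries were directional per the labels' protocols. The strand setting of the counting, the annotation release and the treatment of reads with several matches were not stated in the sources used, so genes with near-identical copies, and the overlapping Hspd1 and Hspe1, may share reads. GENCODE M21 gave symbols for 47310 of 47729 identifiers, while at most 0.029% of the counts of a library lay on the rest.

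Genes were filtered with filterByExpr, TMM set the library scaling, and the quasi-likelihood model of edgeR 4.0.16 in R 4.3.3 (legacy = FALSE) used all 18 libraries with group as the only term. Tests were two-sided with Benjamini-Hochberg adjustment over 14675 genes and a threshold of 0.05. The procedure was tested on simulated data with known changes. Log2 CPM for scores and correlations used a prior count of 2, ratios used 0.5 counts, and a score is the mean of a list's deviations from each gene's mean over libraries. The length slope used genes with a mean of at least 20 CPM. Correlations were tested with 100000 permutations within groups (smallest possible p 1e-05) and ratios with exact permutation tests over all 924 splits. Python 3.11.15 was used for these steps. Replicates of a group were compared by a chi-square of their counts over genes: per degree of freedom it was 35.5 to 455.8 over 45 pairs, where sampling alone gives about 1, and each library was kept as its own sample.

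The members and gene lists were chosen with earlier results of these data known. Named genes are the 8 members; from each chaperone list and the immediate early list, the 3 of smallest p for pregnant against virgin and the 2 of smallest p for pseudopregnant against virgin, of which some are printed; the ratio partners and Hsf1; the 5 genes most correlated with each member, predicted genes left out; and Epcam and Ptprc. Alternatives were DESeq2's or upper-quartile scaling, other low-count filters, DESeq2 1.42.0, limma-voom (limma 3.58.1), a robust fit, only the libraries compared, removal of mitochondrial genes, a replicate block, the villus-minus-crypt score or length slope as a covariate, Hspa1a and Hspa1b summed, and each library left out. Added after seeing the data were counts of genes with shared stretches and a goblet cell score.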

Additional observations from a re-analysis of the deposited data

Results flagged for a closer look

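The ratio of Hspd1 to Hspe1 in pregnant replicate 1 lay apart from the other pregnant libraries. Its log2 ratio was -0.36 per kb of exon, against 0.56 ± 0.49 over all 6 pregnant libraries (mean ± SD). The gap to its nearest neighbour was 0.65 of the whole range of the group, above Dixon's critical value of 0.625 for 6 samples. Of the 6 pregnant libraries it had the highest Hspe1 (190.0 CPM) and the lowest length slope (-0.24). Chance sets apart about 1 in 20 such groups, and 42 groups (8 genes and 6 ratios in 3 groups) were looked at.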

How the results depend on the processing

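No member passed adjustment in any comparison under any alternative, and the fold changes of Hspa1a and Hspa1b kept their sign throughout. DESeq2 called 5 genes for pregnant against virgin and 2 for both states against virgin, the replicate block 1 and 1, and leaving out 1 library 0 or 1. Members at an unadjusted p under 0.05 for pregnant against virgin numbered 0 with limma-voom, the replicate block or only the libraries compared and 1 with the villus-minus-crypt covariate (0 to 4 with a library left out). For pseudopregnant against virgin 1 did with upper-quartile scaling (0 to 4), and for both states 1 with limma-voom, the block, that covariate, Hspa1a and Hspa1b summed or shared stretches added (0 to 5). Genes at that p, with each library left out, ran from 223 to 1953, 540 to 3390, 120 to 1568 and 454 to 2871 in the 4 comparisons; without a filter they were 989, 844 (pregnant against pseudopregnant) and 1722 (both states), with the block 979, 618 and 1723, with the villus covariate 295 (pregnant against virgin), and with the length slope 311 and 461 (pseudopregnant and both states against virgin). Signs turned for several fold changes, most of them near 0, but Hsph1 was at -0.37 for pregnant and Hspe1 at -0.49 for pseudopregnant against virgin. With the villus covariate the turned values were 0.020 (Hsph1), 0.054 (Hspa8) and 0.12 (Hspd1) for pregnant, 0.071 (Hsph1) for pseudopregnant, and 0.045 (Hsph1) and 0.12 (Hspd1) for both states against virgin, and 0.014 (Hspd1) between the states. With the length slope they were 0.055 and -0.22 for Hspe1 (pseudopregnant against virgin, and pregnant against pseudopregnant) and -0.022 for Hspa8 (both states), with upper-quartile scaling -0.0037 (Hspa8, both states) and with only the libraries compared 0.0010 (Hsph1, pseudopregnant against virgin). With each library left out, Hspa8 ran from -0.19 to 0.068 (pregnant against virgin) and -0.047 to 0.16 (both states), Hspd1 from -0.081 to 0.16 (pseudopregnant) and -0.10 to 0.058 (both states), Hsph1 from -0.15 to 0.15 (pseudopregnant), and Dnajb1 from -0.090 to 0.012 and Hspe1 from -0.15 to 0.30 (between the states). The log2 ratio differences that turned were Dnajb1/Dnaja1 (-0.14 to 0.079 for pregnant, -0.058 to 0.17 for pseudopregnant), Hsph1/Hspa4 (-0.29 to 0.080 for pseudopregnant) and Hspd1/Hspa9 (-0.026 to 0.070 for pregnant) against virgin, and inducible to constitutive HSP70 (-0.21 to 0.070) and Hsp90aa1/Hsp90ab1 (-0.13 to 0.0020) between the states. The causes were not tested. The replicate numbers were not taken as pairs: same-numbered deviations correlated at -0.48 to 0.66, over 0.1 in 3 (pregnant against virgin), 4 (pseudopregnant against virgin) and 3 (between the states) of 6 pairs, replicate 3 had the highest villus-minus-crypt score of each group, and 1, 2 and 3 of 6 libraries went best with their own number in the 3 pairwise comparisons. Depth was not limiting, with at least 598 counts per member and library.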

Other observations

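A goblet cell score, the mean level of 9 markers that include Muc2, Agr2 and Spdef, was set against the members after the data had been seen, because goblet and secretory lineage genes (Muc2 and Atoh1) stood among the genes most like Dnajb1 and Hspa1a. Over the 18 libraries with group means removed, Pearson's r with the score was 0.71 for Dnajb1 (Spearman's rho 0.60, r 0.46 without the 2 farthest libraries), 0.68 for Hspa1a (rho 0.63, r 0.53 without 2) and 0.67 for Hspa1b (rho 0.60, r 0.52 without 2). These are descriptions with no test, since the score was chosen from correlations in the same libraries and holds Muc2 and Agr2, which rank among the genes most like Dnajb1 and Hsp90aa1. For Hsp90aa1, r was 0.60 (rho 0.57, r 0.33 without 2 libraries), and for Hspd1 it was -0.16. The score averaged -0.14 ± 0.25 in pregnant, 0.02 ± 0.23 in pseudopregnant and 0.12 ± 0.54 in virgin libraries (SD, n = 6). The summed level of the 9 markers ran from 4592 to 8495 CPM in pregnant, from 6211 to 9820.5 CPM in pseudopregnant and from 5734 to 15263 CPM in virgin libraries. Its part in the values of Hspa1a, Hspa1b and Dnajb1 was not tested.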
